A study of Macrobrachium rosenbergii with 20 samples.

Results

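The transcripts described here are the 200 whose abundance varied least across hepatopancreas and gonads of both sexes in the giant freshwater prawn, Macrobrachium rosenbergii. They were chosen by their measured values. Counts were rounded and divided by median-of-ratios size factors, which scale each library by the typical ratio of its transcripts to their geometric mean over the 20 libraries; these are the normalised counts below. Transcripts with at least 100 counts in each of the 20 libraries were ranked by coefficient of variation (CV, SD over mean across the 20 libraries), and the 200 lowest were taken. They came from 1516 transcripts that met the minimum, of 30260 in the table. Because every library entered this choice, the members' low spread is given as a description and is not tested.

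Total RNA had been taken from 4 groups of 5 samples, namely female hepatopancreas, male hepatopancreas, ovary and testis, all from adults with the strain label CMr1, with no treatment or genotype difference in the labels. The table sets no gene names beside its transcripts, so no tissue marker could be checked against the labels. Nor do the labels say which samples share an animal, so p-values measure the spread between these samples. The smallest library, ovary 2, held 8670640 counts, and the largest, male hepatopancreas 1, held 18355650. In bulk tissue, fewer cells of a type and less RNA per cell cannot be told apart.

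The hepatopancreas is the digestive and metabolic gland of crustaceans and makes digestive enzymes in bulk, while ovary and testis are devoted to building oocytes and sperm. Transcripts held at a like level in such unlike organs are often those of basic cell upkeep, such as protein synthesis, protein turnover, energy supply and the cytoskeleton. Transcripts of that kind serve as reference genes when expression is measured by quantitative PCR, where a target's level is read against one assumed to be constant. The 30260 IDs were looked up among 31758 RefSeq genes of assembly ASM4041242v1 and 0 matched, so which of these roles the members have was not analysed here, and lists of ribosomal, proteasomal, respiratory or usual reference genes could not be counted among them. Each ID carries a quality class, the word Female or Male, a number after f and a length in bases. In long-read transcript names of this form the number after f counts full-length reads, which the labels do not state.

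Across the 20 libraries the members' CV ran from 13.9% to 31.0%, with a median of 26.7%. The other 1316 transcripts that met the minimum had a median CV of 56.0% and reached 327%. All 20 values lay within 2-fold of each other for 19 members and within 3-fold for 154. The median member differed 2.62-fold between its highest and its lowest library, against 7.54-fold for the other 1316. Counting error was a small part of the spread: it alone would give the median member a CV of 3.98%, or 2.67% of its variance.

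**Figure D1:**
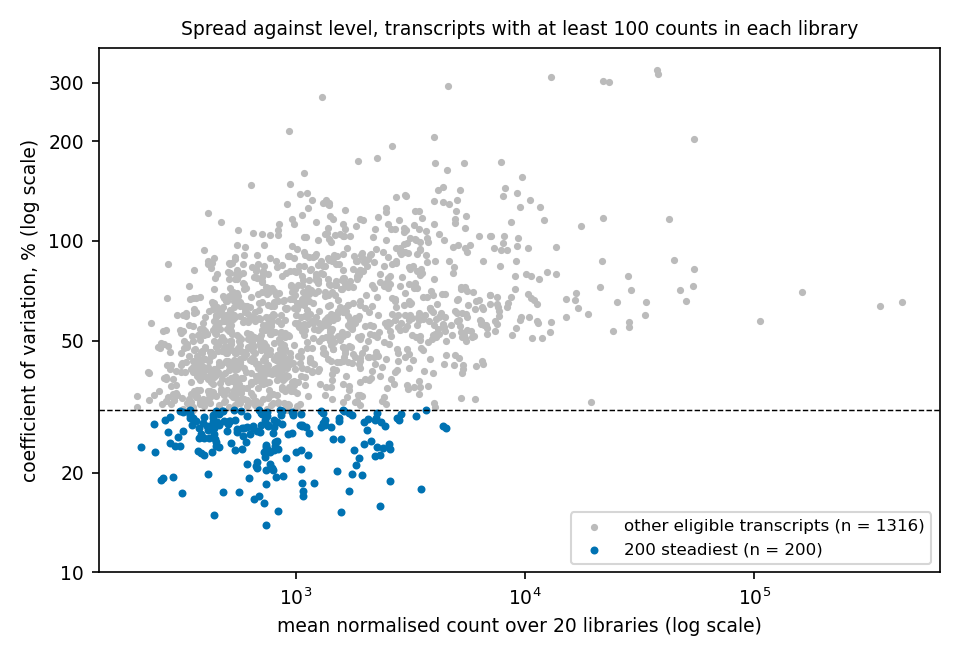
Each point is a transcript with at least 100 counts in each of the 20 libraries, with its mean normalised count on the horizontal axis and its coefficient of variation in percent on the vertical axis, both on log scales. The 200 members (blue) lie under the dashed line at 31.0%, and the 1316 others (grey) lie above it and reach higher levels.

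The members were transcripts of low to middle abundance within the transcripts that met the minimum. Per kilobase of transcript, their mean normalised count had a median of 373 and a highest value of 4129. The other 1316 had a median of 563 per kilobase and a highest value of 340585. When the 1516 were cut into 4 bins of 379 by mean normalised count per kilobase, the bins held 80, 63, 46 and 11 members from the lowest to the highest. The median CV of the bins was 41.3%, 48.5%, 53.1% and 62.6% in the same order. Low spread and low level thus went together among the transcripts that met the minimum. The minimum itself favours this link, because a transcript with few counts had less room to fall below its mean and still be kept. How much of the link came from the minimum was not tested.

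In length the members differed from the rest at the short end and in the middle of the range, and a smaller share of them had Male IDs. Their median length was 2172 bases, against 1904 for the other 1316. Transcripts under 1000 bases made up 13 of the 200 members (6.50%) and 208 of the others (15.8%). Those of 1500 to 3000 bases made up 61.5% and 50.8%, and those over 3000 bases 17.0% and 16.5%. Of the members, 198 carried the word Female and 2 the word Male, against 62 of 1316 with the word Male among the others. Only 1 member was of the LQ class, against 15 of the others. The number after f had a median of 5 in both sets. For 140 members (70.0%) all 20 deposited counts were whole to within 1e-06, against 60.3% of the others, and for 42 members no count was whole. Counts that are not whole can come from reads divided among near-identical transcripts. The counting program is not stated, so whether the values of those 42 depend on such copies was not tested.

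The steadiest transcript was transcript_HQ_Female_transcript40/f2p0/4644, with a mean normalised count of 743 ± 103 (SD, n = 20) and a CV of 13.9%. Its normalised counts in replicates 1 to 5 were 625, 736, 781, 713 and 945 in testis, 612, 697, 592, 768 and 699 in ovary, 851, 865, 836, 903 and 677 in male hepatopancreas, and 714, 577, 698, 806 and 767 in female hepatopancreas. All 4 groups overlapped, with testis 5 highest and female hepatopancreas 2 lowest. Next came transcript_HQ_Female_transcript222/f4p0/3816, at 441 ± 65.6 (SD, n = 20) and a CV of 14.9%. Its normalised counts were 519, 444, 436, 509 and 494 in testis, 368, 359.6, 469.9, 406 and 405 in ovary, 477, 421, 393, 565 and 466 in male hepatopancreas, and 498, 392, 514, 347 and 328 in female hepatopancreas. Both its highest and its lowest values came from hepatopancreas, and the groups overlapped.

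Of the other two among the 4 lowest in CV, 1 was called between groups and 1 was not. For transcript_HQ_Female_transcript1882/f5p0/2477 (CV 15.2%) the normalised counts were 2039, 1961, 1549.5, 1668 and 1936 in testis, 1329.8, 1387, 1044, 1560.4 and 1499.5 in ovary, 1754, 1782, 1568, 1567 and 1542 in male hepatopancreas, and 1493, 1562, 1269.5, 1415 and 1624 in female hepatopancreas. Testis had the highest mean and ovary the lowest, and these groups overlapped in testis 3 at 1549.5 and ovary 4 at 1560.4. EdgeR called it in none of the 4 comparisons (ovary against testis, log2 difference -0.39 ± 0.17, SE). For transcript_HQ_Female_transcript646/f7p0/3154 (CV 15.3%) the normalised counts were 1055, 969.7, 919.5, 883 and 867 in testis, 851, 939, 1071, 999 and 924 in ovary, 776, 795, 808, 666 and 681 in male hepatopancreas, and 659, 727, 742, 798 and 678 in female hepatopancreas. All 10 gonad libraries lay above all 10 hepatopancreas libraries. The ovary mean was 1.33 times the female hepatopancreas mean, and the testis mean 1.26 times the male one. Differences between groups held 74.3% of its squared deviations from the mean, against 32.3% for the steadiest transcript.

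**Figure D2:**
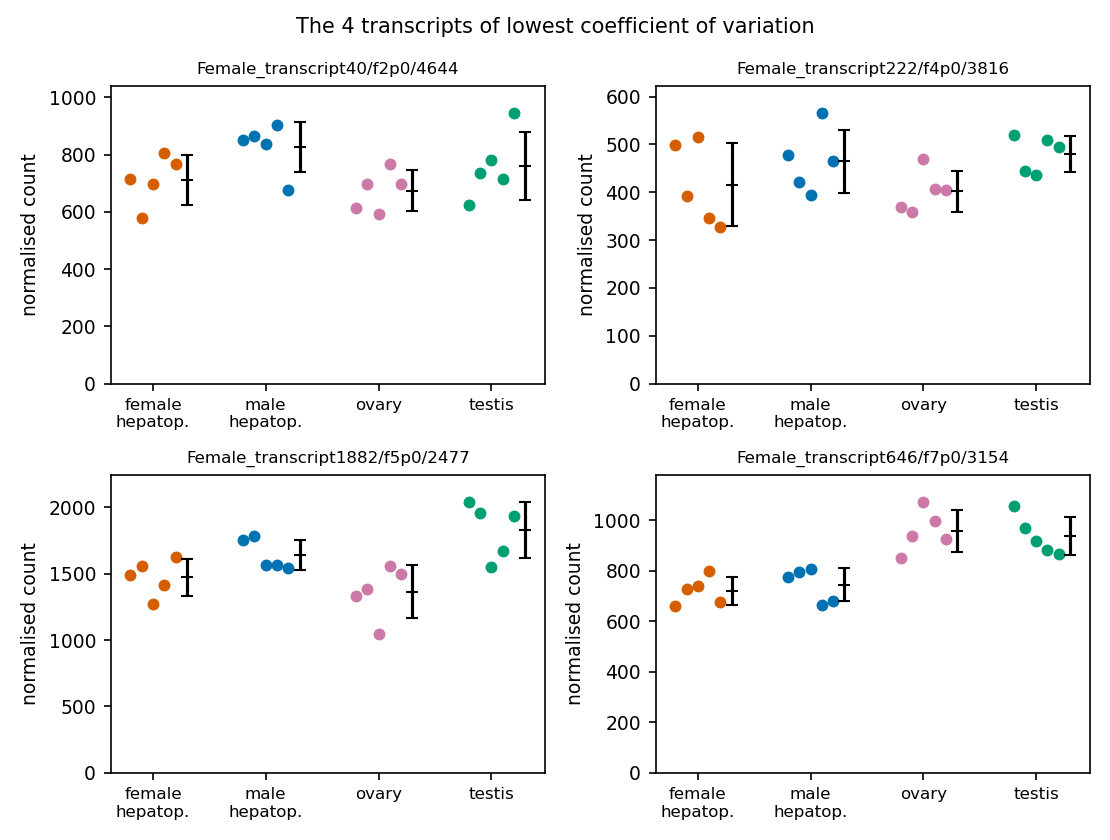
The 4 panels show the 4 transcripts of lowest coefficient of variation, with the normalised count on a vertical axis that starts at 0 and the 4 groups along the horizontal axis. Points are the 5 libraries of a group and black bars the mean ± SD. The groups of transcript40 and transcript222 overlap throughout, while the gonad libraries of transcript646 (851 to 1071) all lie above its hepatopancreas libraries (659 to 808).

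At the 2 ends of abundance per kilobase, spread was not the same as at the steadiest end. The most abundant member was transcript_HQ_Male_transcript24903/f2p0/1099, with 4129 normalised counts per kilobase and a CV of 27.3%. Its normalised counts were 5909.6, 6888, 4672, 4424 and 3626 in testis, 5779, 4983, 5114, 7059 and 5795 in ovary, 3309.8, 3165, 3679.8, 3799 and 3239.5 in male hepatopancreas, and 4504, 3982, 4714, 3026 and 3166 in female hepatopancreas. Every ovary library lay above every hepatopancreas library, while testes 3, 4 and 5 lay within the hepatopancreas range. The second, transcript_HQ_Female_transcript17540/f3p0/1100, had 4000.5 normalised counts per kilobase and a CV of 27.7%, from 2733 in male hepatopancreas 4 to 6772 in female hepatopancreas 5. Its 4 groups overlapped, with means of 4012 ± 1038 in testis, 4013 ± 973 in ovary, 4035 ± 1059 in male hepatopancreas and 5542 ± 1313 in female hepatopancreas (SD, n = 5). None of the 20 counts of either transcript was whole. The least abundant members per kilobase were transcript_HQ_Female_transcript790/f2p0/3052, at 88.4, and transcript_HQ_Female_transcript2062/f2p0/2433, at 107. The former ran from 138 normalised counts in ovary 5 to 417 in testis 1 (CV 28.8%), and the latter from 185 in female hepatopancreas 3 to 340.3 in ovary 4 (CV 19.0%).

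The limit of 31.0% fell within a continuous range of values. Just inside it were transcript_HQ_Female_transcript11098/f57p0/1403 and transcript_HQ_Female_transcript294/f3p0/3644, with CVs of 30.95% and 30.96%. Just outside were transcript_HQ_Female_transcript16107/f86p0/1116 and transcript_HQ_Female_transcript202/f3p0/3865, with CVs of 30.98% and 30.99%. The 4 were alike in spread but not in pattern. Of the outer pair, transcript16107 was low in testis (603 ± 146 normalised counts, against 1308 ± 192 in ovary, SD, n = 5) and transcript202 was high there (1282 ± 323 against 773 ± 35.7). Of the inner pair, transcript11098 stood at 307 to 742 in 19 libraries and at 1072 in testis 5. Its value there was 1.99 times its own mean, which no other member exceeded in any library, and its CV without testis 5 was 22.1%.

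Group means of the members differed from 1.06-fold to 2.27-fold between the highest and the lowest of the 4 groups, with a median of 1.54-fold. For 16 members the 4 means lay within 1.25-fold and for 85 within 1.5-fold, and for 6 they differed more than 2-fold. Among the other 1316 transcripts the median was 3.31-fold and 1129 differed more than 2-fold. Differences between groups held a median of 47.9% of a member's squared deviations, and more than 50% for 91 members (45.5%). For the other 1316 the median was 67.9%, with more than 50% for 992 of them (75.4%). The group that was highest was ovary for 58 members, testis for 52, female hepatopancreas for 50 and male hepatopancreas for 40. The lowest was ovary for 58, testis for 52, male hepatopancreas for 49 and female hepatopancreas for 41, so no group stood at 1 end for most members. Of the other 1316, ovary was lowest for 612 (46.5%).

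EdgeR's quasi-likelihood test, fitted on the whole table in each comparison of 2 groups with TMM scaling, called members between groups even though they were the steadiest. The rule used these same libraries, so nothing is read from the counts, which stand beside the share of all transcripts called (Benjamini-Hochberg adjusted p under 0.05). All 200 members passed the filter on low counts in each fit. Between ovary and female hepatopancreas, where 66.6% of 7107 transcripts were called (63.9% of the 1516), 76 of 200 members were. Between ovary and testis, 47 of 200 members were called, against 56.9% of 7045 transcripts (60.9% of the 1516). Between testis and male hepatopancreas, 43 of 200 were called, against 48.1% of 7094 (47.5% of the 1516). With same-numbered libraries as a block, a pairing taken from the data, 35 members were called, against 45.6% of all transcripts. With no block, the count of 43 fell to 21 without male hepatopancreas 2 (8 higher in testis and 13 lower). It fell to 27 without testis 4. In these 2 fits 38.3% and 41.3% of all transcripts were called. Between female and male hepatopancreas, 3 of 200 were called, against 4.39% of 6582 (7.19% of the 1516). All 3 were higher in females, where 2.19% of all transcripts were called higher and 2.20% lower. DESeq2 called 30 members, or 15%, against 18.5% of all transcripts and 27.6% of the 1516. In edgeR the count was 15 (7.50%) without female hepatopancreas 3 or male hepatopancreas 5, where 9.59% and 11.5% of all transcripts were called. It was 0 without any 1 of the other 8 libraries, where at most 0.0308% of all transcripts were called. At an unadjusted p under 0.05 these 8 fits had 27 to 35 members (13.5% to 17.5%), against 20.9% to 25.9% of all transcripts.

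The direction of the members' calls changed with the scaling and with the filter on low counts. With TMM, 55 members were higher in ovary and 21 in female hepatopancreas, where 33.6% and 33.0% of all transcripts were called in those directions. With the size factors used for the choice, the same test gave 36 and 28 (31.3% and 35.3% of all transcripts). Between testis and male hepatopancreas the counts were 33 and 10 with TMM (25.1% and 23.0% of all transcripts), and 18 and 19 with the size factors (21.5% and 25%). Between ovary and testis they were 31 and 16 with TMM (27.0% and 29.9% of all transcripts) and 29 and 18 with the size factors (26.7% and 30.4%). With a filter of 50 counts and TMM, 24 members were higher in ovary and 32 in testis (30% and 29.6% of all transcripts). The same filter gave 44 higher in ovary and 29 in female hepatopancreas (36.4% and 34.3%), and 26 higher in testis and 17 in male hepatopancreas (23.8% and 29.0%). With no filter, 32 members were higher in ovary and 8 in testis (19.3% and 24.2% of all transcripts). No filter gave 84 higher in ovary and 0 in female hepatopancreas (26.4% and 24%), and 16 higher in testis and 14 in male hepatopancreas (18.4% and 17.6%). With library totals alone every member called was higher in ovary than in the group compared, or in testis than in male hepatopancreas. These were 200 members for ovary against female hepatopancreas, where 56.2% of all transcripts were called higher and 15.8% lower. They were 165 for ovary against testis (46.2% and 13.9%) and 130 for testis against male hepatopancreas (44.7% and 15.3%). The median log2 difference of all transcripts on totals alone was higher than with TMM by 1.66 for ovary against female hepatopancreas, 1.27 for ovary against testis, 0.89 for testis against male hepatopancreas and 0.44 for female against male hepatopancreas. The size factors moved it by -0.15, -0.02, -0.16 and 0.00 in the same order.

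On the TMM scale the members' log2 differences stayed mostly within 1. They ran from -0.83 to 1.06 for ovary against female hepatopancreas, from -0.96 to 1.18 for ovary against testis, from -0.95 to 1.01 for testis against male hepatopancreas and from -0.60 to 0.86 for female against male hepatopancreas. More than 2-fold apart in these comparisons were 3, 2, 2 and 0 members, against 68.8%, 62.6%, 52.7% and 23.2% of all transcripts tested. These values were bounded by the choice of members.

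The members that differed most between 2 groups show what a CV near 30% can still hold. Between ovary and testis, the highest ratio of means was that of transcript_HQ_Female_transcript14958/f2p0/1245. Its normalised counts were 1612, 1554, 1584, 1907 and 1753 in ovary and 892, 695, 620.3, 674 and 910.3 in testis, a 2.22-fold difference with no overlap and an edgeR log2 difference of 1.18 ± 0.18 (SE). Both hepatopancreas means lay between, at 1362 ± 190 in females and 1475 ± 296 in males (SD, n = 5), so the low group was testis. The lowest ratio was that of transcript_HQ_Female_transcript2965/f3p0/2214, with 554, 632, 504, 719 and 627 in ovary and 1303, 1291, 1017, 1062 and 1349 in testis (log2 difference -0.96 ± 0.16, SE). It stood at 1253 ± 80.5 in male hepatopancreas (SD, n = 5) and at 706 to 1592 in female hepatopancreas, so ovary was the low group, overlapped only by female hepatopancreas 3.

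Between ovary and female hepatopancreas, transcript_HQ_Female_transcript9370/f46p0/1517 had the highest ratio. It had normalised counts of 401, 476, 394, 576 and 338 in ovary and 221, 278, 288, 182 and 199 in female hepatopancreas, a 1.87-fold difference (log2 1.06 ± 0.21, SE). Female hepatopancreas was lower than each other group, without overlap. The lowest ratio was that of transcript_HQ_Female_transcript3204/f2p0/2177, with 374, 271, 264, 304 and 278 in ovary and 751, 473, 715, 552 and 447 in female hepatopancreas (log2 difference -0.83 ± 0.21, SE). Ovary was its lowest group and did not overlap any other.

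Between testis and male hepatopancreas the extremes were transcript_HQ_Female_transcript1310/f3p0/2721 and transcript_HQ_Female_transcript1218/f43p0/2657. The former had normalised counts of 1287, 1252, 1024, 949 and 1463 in testis and 717, 717, 647, 565 and 647 in male hepatopancreas, a 1.81-fold difference (log2 1.00 ± 0.19, SE). The ovary mean lay between, at 922 ± 165, and female hepatopancreas was at 653 ± 94.6 (SD, n = 5). The latter had 2382, 3284, 2119.8, 1886 and 1824 in testis and 4429, 4844, 5426, 4784 and 4592 in male hepatopancreas, 2.09 times higher in the latter group (log2 difference -0.95 ± 0.21, SE). All 10 hepatopancreas libraries (4077 to 5426) lay above all 10 gonad libraries (1824 to 3461), and groups held 88.2% of its squared deviations, the highest share of any member.

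Between the sexes in hepatopancreas, the highest ratio was that of transcript_HQ_Female_transcript20097/f20p0/898. Females 1 to 5 had 747, 1293, 653, 768 and 1056 normalised counts and males 518, 503, 534, 448 and 595, a 1.74-fold difference without overlap (log2 0.86 ± 0.20, SE). The lowest was that of transcript_HQ_Female_transcript1396/f18p0/2674, with 2396, 2806, 1336, 2414 and 1797 in females and 2732, 4214, 3447, 4296 and 2350.4 in males (log2 difference -0.60 ± 0.27, SE). Its groups overlapped, and edgeR did not call it.

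The libraries did not share equally in the members' spread. An equal part of the summed squared deviations would be 5% per library. Testis 5 held 10.2% and ovary 4 held 8.89%, and the other 18 libraries held 2.86% to 6.67%. The SD over members of the log2 ratio to their own mean was 0.56 in testis 5 and between 0.28 and 0.41 elsewhere. In testis 5, 18 members lay more than 2-fold from their own mean, all of them below it, and no other library held more than 3 such members. The choice bears on that side, because 2-fold above a mean is a larger deviation from it than 2-fold below. With CVs of at most 31.0%, the highest ratio of any member to its own mean in any library was 1.99. The farthest below was transcript_HQ_Female_transcript2727/f5p0/2254, at 281 normalised counts in testis 5 or 0.29 of its own mean. Its other testis libraries had 1190.3, 818, 569 and 718, and the other 3 groups ran from 686 to 1447. Without testis 5 its CV was 24.5% in place of 29.9%. Testis 5 held the highest value of 26 members and the lowest of 33, and ovary 4 the highest of 38 and the lowest of 4.

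Within a group the members' median CV was 14.1% in male hepatopancreas, 16.4% in ovary, 18.8% in female hepatopancreas and 20.6% in testis. Over all 1516 transcripts it was 19.1%, 21.6%, 26.0% and 29.2%, in the same order of groups.

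Libraries of a group still lay near each other in the members as a set, apart from the testes. Principal components of their log2 normalised counts held 24.1%, 19.2% and 12.6% of the variance. On the first, all hepatopancreas libraries scored -2.61 to -1.81 and ovary 2.56 to 4.25, with testes 1 to 4 between 0.12 and 1.01 and testis 5 at 3.08. On the second, testis scored -4.85 to -1.54 and the other 3 groups -0.30 to 3.28. The third spread the testes, with testes 1 and 2 at -4.77 and -4.56, testes 3 and 4 at -0.33 and -0.18, and testis 5 at 4.49, while the other groups scored -0.58 to 1.15. Female and male hepatopancreas overlapped on all 3.

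On CPM, counts scaled to the library total, these transcripts were not steady. Their CV in CPM had a median of 76.4% (44.5% to 99.9%), against 76.5% for the other 1316. For each of the 200 it was higher than the CV in normalised counts, for which they had been chosen as lowest. Of the other 1316, 496 (37.7%) had a lower CV in CPM than in normalised counts. In the ovary libraries the median member stood 0.98 to 1.18 above its own mean CPM on the log2 scale. In male hepatopancreas it stood at -1.58 to -0.89, in female hepatopancreas at -1.16 to -0.47, and in testis from -1.09 in testis 1 to 0.39 in testis 5. In normalised counts, the scale of the choice, the same medians lay between -0.18 and 0.15 in all 20 libraries.

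**Figure D3:**
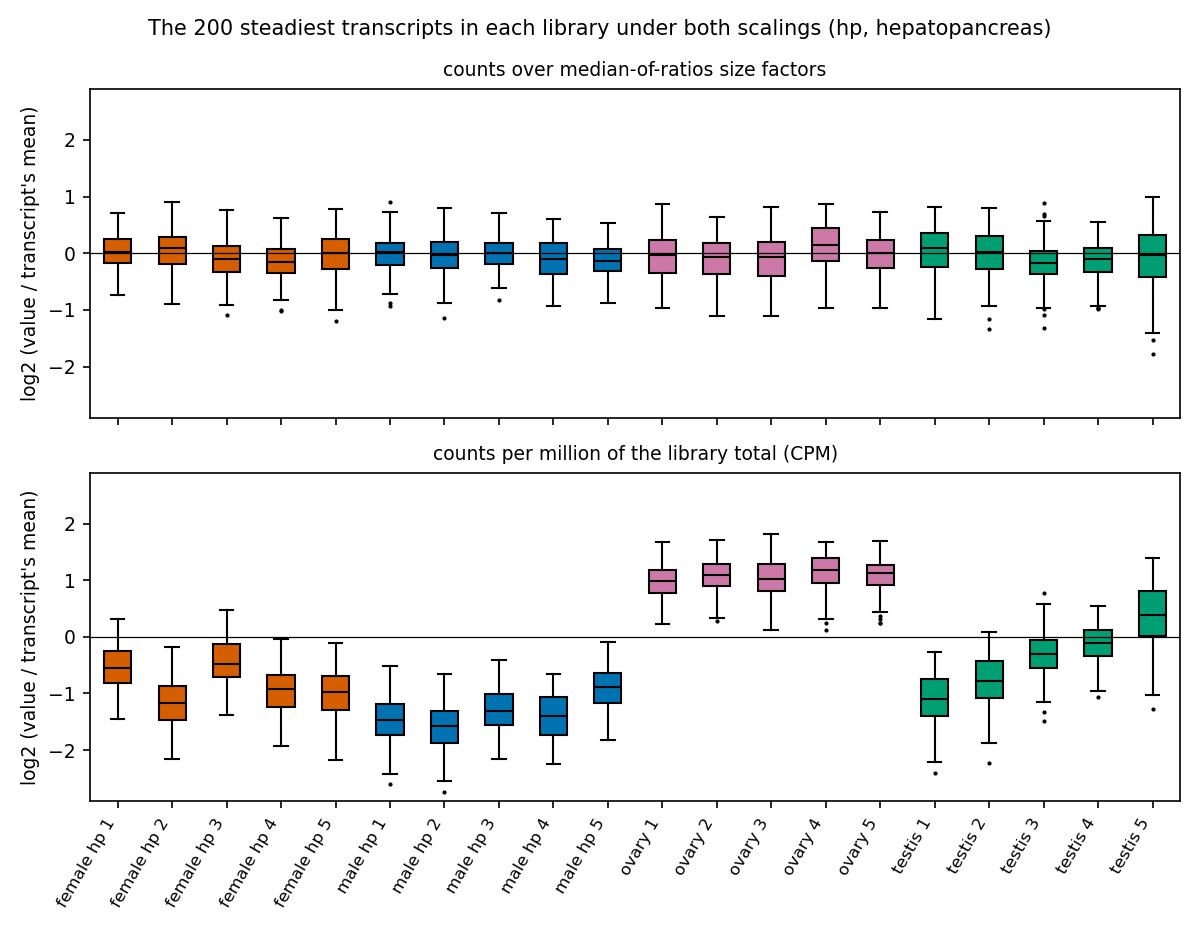
Boxes show, for each of the 20 libraries, the log2 ratio of the 200 members to their own mean over the libraries (line, median; box, quartiles; whiskers, values within 1.5 box lengths; dots, values beyond), in normalised counts (top) and in CPM (bottom). The medians stay between -0.18 and 0.15 in the top panel and range from -1.58 in male hepatopancreas 2 to 1.18 in ovary 4 in the bottom panel.

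The members' summed CPM can also be given as the share of a library's counts that they took, which is the same scaling to the library total. It was 3.78%, 4.0%, 3.98%, 4.20% and 4.02% in ovaries 1 to 5, and 0.919%, 1.15%, 1.48%, 1.70% and 2.38% in testes 1 to 5. In female hepatopancreas it was 1.32%, 0.870%, 1.43%, 0.989% and 0.983%, and in male hepatopancreas 0.670%, 0.624%, 0.759%, 0.715% and 1.02%. Ovary lay above each other library, and the other 3 groups overlapped. The means were 3.99% ± 0.15 for ovary, 1.53% ± 0.56 for testis, 1.12% ± 0.24 for female and 0.757% ± 0.153 for male hepatopancreas (SD, n = 5), so the ovary mean was 5.28 times that of male hepatopancreas. The 95% Wilson interval of a library's share was at most 0.013 percentage points to either side and covers counting error only. Leaving the 10 most abundant transcripts of a library out of its total raises this share. The group means were then 4.84%, 2.24%, 1.54% and 1.07%, in the same order.

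**Figure D4:**
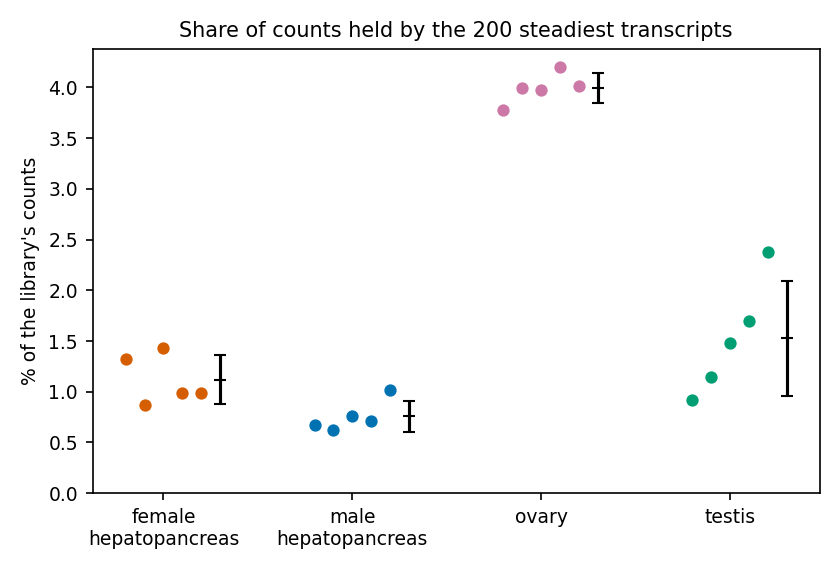
The vertical axis gives the percent of each library's counts that fell on the 200 members, and the 4 groups stand along the horizontal axis. Points are the 5 libraries of a group and black bars the mean ± SD. The ovary libraries lie at 3.78% to 4.20% and all others at 0.624% to 2.38%.

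How many of the 200 another setting would also choose depended first on the scaling. With TMM factors 164 were also among the 200 lowest in CV. With the upper quartile of the eligible transcripts 95 were, with library totals 5, and with counts per kilobase scaled to a common sum (TPM) none were. By the mean SD of a transcript's log2 ratios to every other eligible transcript, a measure that needs no scaling, 139 were shared. Correcting the CV for counting error kept 197, and the SD of log2 normalised counts kept 175. Leaving out 1 library kept 177 (without female hepatopancreas 2, or without testis 5) to 194 (without female hepatopancreas 1), and 163 members were chosen in all 20 of these repeats.

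**Figure D5:**
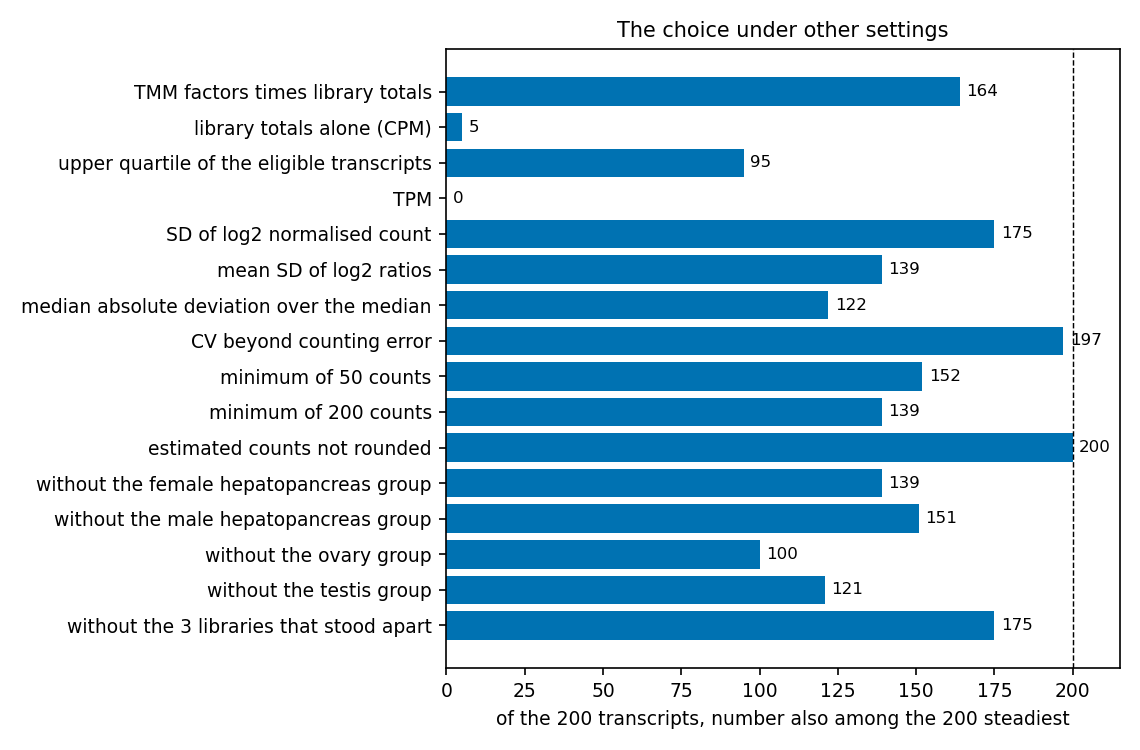
Each bar gives how many of the 200 members are also among the 200 steadiest when 1 choice is changed, with the dashed line at 200. Other scalings leave from 0 (TPM) to 164 (TMM), other measures of spread 122 to 197, and leaving out a whole group 100 (ovary) to 151 (male hepatopancreas).

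A choice made on 3 groups could be read in the group that it did not use. The 200 steadiest transcripts of the 15 libraries without ovary had an ovary mean that differed from their mean over those 15 libraries by a median of 1.77-fold, against 2.14-fold for the other transcripts that met the minimum of 100 counts there. Within 2-fold were 130 of the 200 (65.0%), against 46.5% of the others. Chosen without testis, the 200 differed by a median of 1.40-fold in testis, against 1.69-fold for the others, and 157 lay within 2-fold (78.5% against 62.4%). Chosen without male hepatopancreas, the median was 1.26-fold against 1.5-fold, with 188 within 2-fold (94.0% against 76.3%). Chosen without female hepatopancreas, it was 1.27-fold against 1.40-fold, with 190 within 2-fold (95% against 82.2%). In each case the group left out lay nearer to the others for the transcripts chosen than for the rest. This is a description over transcripts, with no test. These lists are not the members: they shared from 100 (chosen without ovary) to 151 (without male hepatopancreas) with the 200. Of those chosen without female hepatopancreas, male hepatopancreas, ovary and testis, 31, 15, 2 and 7 fell under 100 counts in a library of the group left out. Chosen without ovary, the 200 had a median log2 difference of 0.35 in ovary, against -0.55 for the others.

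Weight gain, a label of each sample, had no unit stated. Its values were 4.33 to 7.21 for the females and 1.61 to 3.69 for the males sampled for hepatopancreas. They were 2.14 to 7.52 for ovary samples and 1.48 to 2.83 for testis samples. The ranges in hepatopancreas did not overlap, so sex and weight gain cannot be told apart in the comparison of female and male hepatopancreas. Within sex, edgeR called 0 of 200 members for a slope along it in hepatopancreas and 0 in gonads, with 0.00% of all transcripts called in either tissue. At an unadjusted p under 0.05 edgeR had 2 members of 200 in hepatopancreas (1.00%, against 6.15% of all transcripts) and 0 in gonads (against 2.48%). DESeq2 called 1 member in hepatopancreas, against 1.31% of all transcripts, and 0 in gonads, against 0.312%. At an unadjusted p under 0.05 DESeq2 had 5 members in gonads, or 2.50%, against 5.75% of all transcripts. The members' slopes ran from -0.23 to 0.26 on the log2 scale per unit of weight gain in hepatopancreas and from -0.18 to 0.18 in gonads. Those of the 1516 transcripts that met the minimum ran from -0.91 to 1.40 and from -0.81 to 0.91. The members' slopes were bounded by their choice for low spread in these same libraries. Nothing is therefore read from their narrower range or from the lower shares of members at either p limit.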

How the data were processed

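Values are estimated counts per transcript as deposited by the authors, without normalisation, in 1 table with a column per library. Per the submitters' processing notes, which state no roles, the tools were Bowtie 0.12.2 and DESeq 1.10.1. For the counting program and transcript set the entry is "not given in the sources used here". Libraries were made with a directional kit, per the labels' protocols.

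Counts were rounded. Size factors were medians of ratios over the 5239 transcripts counted in all 20 libraries. EdgeR 4.0.16 in R 4.3.3 (quasi-likelihood test, TMM) was fitted on the 2 groups compared, with transcripts of at least 10 counts in at least 5 libraries. DESeq2 1.42.0 was an alternative, with other scalings, filters, measures of spread, a replicate block and left-out libraries or groups. Scripts were tested on simulated data. The members and all lists and rules were chosen with earlier results of these data known. Named are the 4 members of lowest CV, the 2 of highest and 2 of lowest level per kilobase, those at the limit, the extremes of each comparison and of single libraries. TPM scaling, and the reading of a choice in the group left out, were added after seeing the data.

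Same-numbered libraries were checked for pairing by correlating deviations from the group means. Testis and male hepatopancreas correlated at 0.14 to 0.28 in 5 of 5 pairs and were taken as paired, a pairing that comes from the data and not from the labels. Their weight gain labels differ, from 2.06 in male hepatopancreas 1 and 2.05 in testis 1 to 2.83 in male hepatopancreas 4 and 1.48 in testis 4. Ovary and female hepatopancreas correlated at -0.05 to 0.40, over 0.1 in 4 of 5 pairs, and were not taken as paired. The log2 differences and SEs given above come from fits with no block. EdgeR reports no SE, so each was worked back as the absolute log2 difference over the square root of the test's F statistic. No 2 libraries of a group agreed within sampling noise (lowest mean chi-square per transcript 104).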

Additional observations from a re-analysis of the deposited data

Results flagged for a closer look

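Among 88 groups of 5 libraries examined (the 21 named transcripts and the members' share of counts in each group), 3 held a library whose gap to the nearest other was above Dixon's 95% critical value of 0.71 of the group's range. Chance flags about 1 in 20 groups. Transcript transcript_HQ_Female_transcript11098/f57p0/1403 stood at 1072 normalised counts in testis 5, against 472 to 577 in the other testes. It had been named for that value, the farthest above its own mean of any member, so the flag restates how it was picked. The same transcript stood at 362 in female hepatopancreas 3, against 544 to 591 in the other females. Transcript transcript_HQ_Female_transcript9370/f46p0/1517 stood at 299 in male hepatopancreas 5, against 359 to 381 in the other males.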

How the results depend on the processing

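Of the 200 members, 5 were kept with library totals, 95 with the upper quartile, 0 with TPM, 122 with the median absolute deviation, 100 without ovary and 121 without testis; leaving out each library kept 177 to 194. Without the 10 most abundant transcripts in the total, the members' share of counts was 4.84% in ovary, 2.24% in testis, 1.54% in female and 1.07% in male hepatopancreas. Leaving out each library gave 3.94% to 4.05%, 1.31% to 1.68%, 1.04% to 1.18% and 0.692% to 0.790% in that order. The 3 members called between female and male hepatopancreas were 30 in DESeq2, 6 with a filter of 50 counts and 1 with all groups in 1 fit. In these settings 18.5%, 9.61% and 3.51% of all transcripts were called. In edgeR with library totals, no filter or the replicate block, 0 members and 0.00% of all transcripts were called. At an unadjusted p under 0.05 these last settings had 69, 33 and 23 members, against 28.0%, 21.1% and 20.7% of all transcripts. With library totals 165 were called between ovary and testis, 200 between ovary and female hepatopancreas and 130 between testis and male hepatopancreas. All of these members were higher in the first group named. Of all transcripts, 46.2%, 56.2% and 44.7% were called higher there and 13.9%, 15.8% and 15.3% lower, in the same order. DESeq2 called 1 member for the weight gain slope in hepatopancreas, against 1.31% of all transcripts. Leaving out each library gave 0 to 15 calls for female against male hepatopancreas and 34 to 64 for ovary against testis. It gave 58 to 73 for ovary against female hepatopancreas, 21 to 45 for testis against male hepatopancreas, and 0 to 0 for both slopes. Of all transcripts these fits called 0.00% to 11.5%, 51.0% to 60.5%, 61.0% to 66.2%, 38.3% to 47.8% and 0.00%, in the same order. Over all settings of these counts of calls, 75 stayed within 1.5 times the count given and 23 did not. The cause of these changes was not tested. With the replicate block, the paired fit of testis against male hepatopancreas called 35 members in place of 43 (45.6% of all transcripts in place of 48.1%). The block gave 57 members between ovary and female hepatopancreas and 25 between ovary and testis, against 65.0% and 51.0% of all transcripts. Same-numbered samples of ovary and female hepatopancreas share a sex and a number. Of their pairs 4 of 5 correlated over 0.1, and 7 of 10 samples correlated best with their own number. Whether they share an animal is not stated. Between ovary and testis, and between female and male hepatopancreas, the samples share only a number. There 0 of 5 and 0 of 5 pairs correlated over 0.1, and 2 and 2 of 10 samples correlated best with their own number. No block was fitted for the slopes.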

Other observations

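The 200 transcripts of lowest CV in CPM, of which 5 are members, had a CV of 24.8% to 94.4% in normalised counts, with a median of 53.4%. In normalised counts ovary was the lowest group for 196 of them, with a median ovary mean of 0.31 times the female hepatopancreas mean and 0.46 times the testis mean. They took 7.47% ± 2.16 of counts in ovary, 5.70% ± 1.46 in testis, 8.65% ± 1.80 in female and 5.14% ± 0.87 in male hepatopancreas (SD, n = 5). Their median length was 2209 bases and their median level 468 normalised counts per kilobase, against 2172 bases and 373 for the 200 members. They were chosen by their values in the same libraries, so these are descriptions.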
